A study of Nicotiana tabacum with 9 samples.

Results

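The transcriptome of unperturbed tobacco pollen was described from the wild type (WT) libraries alone, which are 3 of the 9 libraries of the series. They were chosen by their label only, so no measured value decided which libraries entered. The plants were *Nicotiana tabacum* cv. Petite Havana SR1, and the pollen was labelled as bicellular. The other 6 libraries came from plants in which an autophagy gene, *ATG2* or *ATG5*, had been silenced, and they were not used here. The study states independent biological replicates for each genotype, and the age of the plants, the number pooled and the time of collection are not given in the sources used here. There was no second group to compare with, so every value below is a description of these libraries without a p-value, and an SD is the spread over 3 libraries. The values of a gene are listed in the order of WT replicates 1, 2 and 3.

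A bicellular pollen grain is a large vegetative cell that carries a smaller generative cell inside it. The vegetative cell builds the pollen tube, and the generative cell later divides to give the sperm cells. Much of the mRNA needed for germination and early tube growth is made before the grain is shed and is stored, and tube growth then depends on secretion of wall material, on actin-based transport and on sugar taken up or released from reserves.

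Expression was given in FPKM, the fragments assigned to a gene per kilobase of its transcript, scaled to the mapped fragments of the library, so levels of different genes can be compared per length. Each library lists the same 76785 rows. Of these, 7686 are transcripts outside the reference annotation, called unannotated here, and 69099 are annotated genes, which carry a numerical gene identifier. Unannotated transcripts are called by the number they have in the tables. How they were found is not given in the sources used here. A gene name could be attached to 1081 annotated genes through a table of another tobacco cultivar (K326), so most abundant genes are given by identifier only and without a role. Of the depth, a minimum of read pairs common to all libraries is stated by the authors. Read counts per gene are not part of the tables, and the fragments behind a level could therefore not be worked out, so that neither counting intervals nor limits for a value of 0 are given, and a gene at 0 is one that the table lists at 0. Values in WT replicate 3 carry 1 decimal and those in replicates 1 and 2 carry 2, which makes 0.1 the lowest value above 0 in replicate 3 and 0.01 in the others.

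The pollen label was checked against marker genes. They were chosen with earlier results of these data known, so the check is not an independent one. The 6 pollen markers are also part of the list of 14 pollen and pollen tube genes below. Of that list 11 averaged 10 FPKM or more and 1 was at 0 in all libraries. All 6 pollen markers were above 100 FPKM in every library, and together they reached 25954, 27194 and 27732 FPKM. Their lowest member was *PRO1*, a profilin that binds actin monomers, at 764, 691 and 787 FPKM. By contrast, 18 genes of green tissue (light-harvesting proteins, photosystem subunits and Calvin cycle enzymes) summed to 6.97, 3.44 and 3.1 FPKM. The highest of them was *CAB21*, a chlorophyll a/b-binding protein, at 1.91, 1.18 and 0.9 FPKM, and 2 of the 18 were at 0 in all libraries. Of 8 root genes, 5 were at 0 throughout, among them the putrescine methyltransferases *PMT1* to *PMT4* of nicotine synthesis, and the sum of the list lay between 0.37 and 0.4 FPKM. Style and other floral genes summed to 16.5, 6.94 and 5.9 FPKM over 8 genes, of which *NFL*, *SEP3* and *SUP*, regulators of flower development, were at 0. Most of that sum was *Sp41a*, a glucanase of the style, at 13.9, 5.32 and 4.8 FPKM. Both the green and the floral sum were therefore highest in WT replicate 1. A list for the tapetum and anther wall could not serve as a check, because 2 of its 8 names matched a gene, *TKPR1*, an enzyme of sporopollenin synthesis, at 0.06, 0 and 0.1 FPKM and *dtc1* at 64.1, 56.2 and 56.9 FPKM. All markers were matched by name only and their roles were not checked, which holds for *dtc1* as for the low markers. Of the markers of tissues other than pollen, *dtc1* was the highest. Whether its level is RNA of the tapetum or anther wall was not tested, so the pollen label is left unchecked against these tissues. In bulk pollen, fewer cells of a type and less RNA per cell cannot be told apart.

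A small number of very abundant transcripts held most of the signal. Rows above 0 and under 1 FPKM numbered 21681, 20780 and 17931 in the libraries and held 0.638 ± 0.0211% of all FPKM (SD, n = 3). Rows of 1 to 10 FPKM held 4.93 ± 0.144%, rows of 10 to 100 FPKM 15.5 ± 0.454% and rows of 100 to 1000 FPKM 33.2 ± 0.616%. The 183, 177 and 172 rows of 1000 FPKM or more held 45.7 ± 1.19% of all FPKM. Put the other way, 219, 219 and 235 rows were enough for 50% of the FPKM, 3372, 3435 and 3699 rows for 90%, and 16838, 16911 and 17668 rows for 99%. These shares differed between libraries by far less than between classes.

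**Figure D1:**
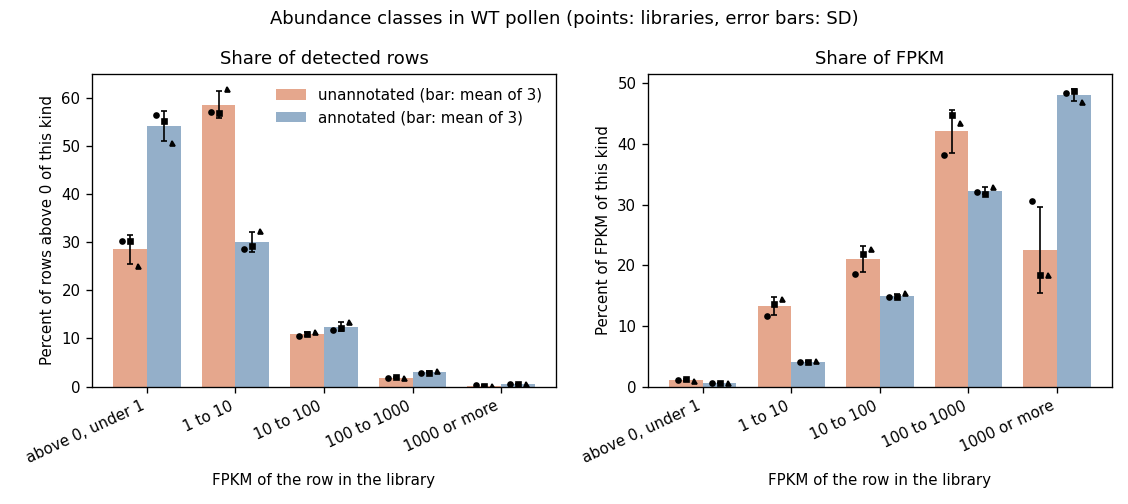
Share of the detected rows (left) and of the FPKM (right) in 5 classes of FPKM, for unannotated transcripts (orange) and annotated genes (blue). Bars are means over the 3 WT libraries, error bars the SD and points the libraries (circle, square and triangle for replicates 1, 2 and 3). Rows of 1000 FPKM or more are under 1% of the detected rows of either kind, yet they hold 22.5% of the FPKM of unannotated transcripts and 48.1% of that of annotated genes.

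The most abundant transcript was *ntp101*, named after a tobacco pollen clone, at 8892, 9425 and 9438 FPKM. Its mean of 9252 FPKM was 0.969 ± 0.0403% of a library (the share of the highest row in each, SD, n = 3), and its range did not overlap that of the next gene, GeneID:107769110, at 8715, 8197 and 7261 FPKM. Further down the order is less sure. Of the 9 pairs of neighbours among the 10 highest genes, 7 had overlapping ranges, and 3 pairs stood in the same order in all libraries. Apart from *ntp101* and *ntp805*, the genes at ranks 1 to 10 carry no name. The other gap without overlap lay between GeneID:107825053 at rank 5, with 7728, 7388 and 7263 FPKM, and GeneID:107767914 at rank 6, with 6992, 6534 and 6803 FPKM. The lists of highest rows were shared to a large degree, since 8 of 10, 87 of 100 and 948 of 1000 rows were common to all 3 libraries. Among the 100 rows of highest mean, 6 were named genes and 5 were unannotated transcripts, and among the highest 1000 these numbers were 40 and 103.

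**Figure D2:**
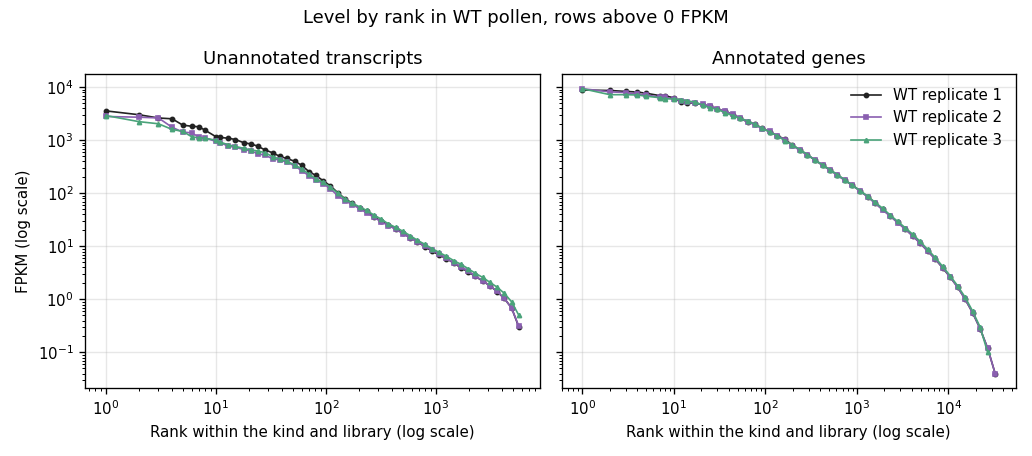
FPKM against rank for unannotated transcripts (left) and annotated genes (right), both axes on a log scale, with 1 line per WT library through selected ranks and rows at 0 left out. The annotated curves start at 8892 to 9438 FPKM and the unannotated curves at 2816 to 3593 FPKM. In the unannotated panel replicate 1 lies above the other libraries at the plotted ranks 1 to 173, rank 3 excepted.

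Named genes of known function were grouped into 13 lists, which together with the markers cover 320 genes. Over all annotated genes 7.77% averaged 10 FPKM or more and 1.70% averaged 100 FPKM or more, and over all 1081 named genes these shares were 15.8% and 4.90%. Named genes were thus abundant more often than annotated genes as a whole, and the counts of the lists are to be read against the named genes. The 4 highest members and the lowest member above 0 of each list were named by rule, and other members, such as the BiP and *RAB11* genes or genes at 0, after their values were seen. Of the named genes, 53 averaged 100 FPKM or more and 9 averaged 1000 FPKM or more.

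The list of pollen and pollen tube genes was the most abundant, with 11 of 14 members at 10 FPKM or more, 10 at 100 FPKM or more and a median of 902 FPKM. It was drawn up from genes known for their expression or function in pollen, so a high level was part of its choice. After *ntp101* came *ntp805* at 5815, 6253 and 6741 FPKM and *ntp201* at 4959, 5282 and 6048 FPKM, 2 further genes named after tobacco pollen clones. The ranges of both genes overlapped, although *ntp805* was the higher in each library. Members of the list were not uniformly abundant. The MYB factor *mybAS2* was at 15.9, 15.8 and 12.5 FPKM, the MAP kinase *ntf4* at 3.84, 2.77 and 5.7 FPKM, and the invertase *Nin88* at 0.25, 0.34 and 0.2 FPKM. *NtTPK1* was at 0 in all libraries.

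Cell wall genes were split between very high values and values at or near 0. *PPME1*, a pollen pectin methylesterase that sets the stiffness of the tube wall, reached 4568, 4602 and 3840 FPKM, and *NPG*, a polygalacturonase that cuts pectin, reached 1815, 1730 and 1690 FPKM. Both are pectin enzymes, and they were the only members of the 21 genes at 10 FPKM or more. Both are also in the list of pollen and pollen tube genes, where a high level was part of the choice. *AGP2*, an arabinogalactan protein, followed at 2.62, 3.27 and 1.7 FPKM, and *CesA1*, a cellulose synthase subunit, at 1.51, 1.2 and 1.5 FPKM. Of the remaining members, 9 were at 0 in all libraries, among them the expansin *EXPA6*, the extensin and the xyloglucan endotransglucosylase *XTH7*. The lowest value above 0 belonged to *Cel8*, an endoglucanase, at 0.02, 0 and 0 FPKM. The median of the list was 0.0167 FPKM, below that of all named genes at 0.2 FPKM.

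Genes of the cytoskeleton and of vesicle traffic formed the largest list, with 26 of 46 members at 10 FPKM or more and 15 at 100 FPKM or more. Of the latter, *PRO1*, *PRO2*, *PRO3*, *PLIM-2* and *Risap* are also in the list of pollen and pollen tube genes. The beta-tubulin *TUB8* was the highest member at 1374, 1429 and 1251 FPKM. Profilins, which deliver actin monomers to growing filaments, followed with *PRO2* at 1226, 1109 and 1145 FPKM and *PRO3* at 882, 828 and 926 FPKM. The LIM protein *PLIM-2*, which bundles actin filaments, stood at 956, 941 and 878 FPKM. Each of the 3 profilins was above the most abundant named actin gene, *Tob93*, which had 355, 360 and 409 FPKM. The 3 profilins summed to 2873, 2628 and 2857 FPKM and the 4 alpha-tubulins to 2323, 2374 and 2709 FPKM, with *tubA3* highest at 788, 806 and 933 FPKM. Among small GTPases, *Rab8-5* and *Rab8-3*, of the class that sends secretory vesicles to the plasma membrane, had 308, 328 and 318 FPKM and 242, 244 and 235 FPKM. *SAR1*, which starts vesicle budding at the endoplasmic reticulum, had 117, 115 and 121 FPKM, and *Rab2*, which acts between the endoplasmic reticulum and the Golgi, had 62.1, 61.8 and 61.6 FPKM. The 4 *RAB11* genes of the list differed from one another, with *RAB11A* at 15.1, 15.7 and 17.8 FPKM and *RAB11B*, *RAB11C* and *RAB11D* at 0 in all libraries. The lowest member above 0 was *map65-1c*, a protein that crosslinks microtubules, at 0.03, 0 and 0 FPKM.

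**Figure D3:**
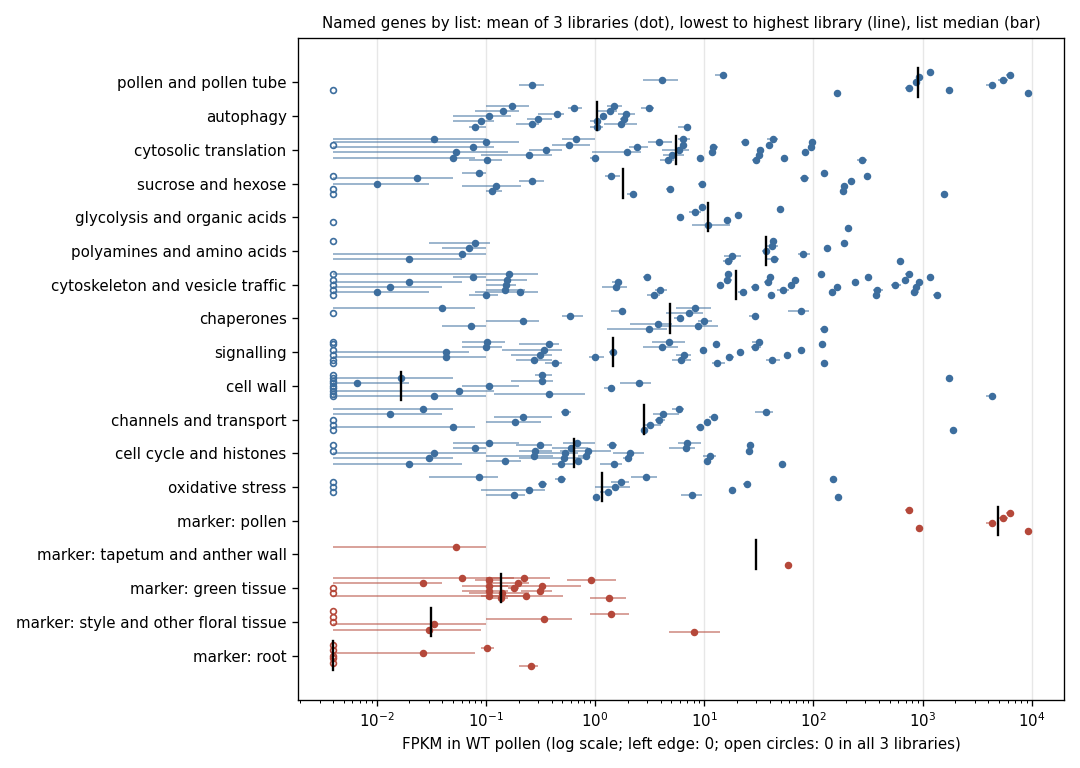
Level of each named gene, by list. Dots are means over the 3 WT libraries on a log FPKM axis, lines run from the lowest to the highest library, black bars are the medians of the lists, open circles are genes at 0 in all libraries, and the marker lists are in red. The list of pollen and pollen tube genes has a median of 902 FPKM and the autophagy list one of 1.04 FPKM, and the cell wall list holds *PPME1* and *NPG* far to the right of all its other members.

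Of the 20 genes of sucrose and hexose metabolism, 7 averaged 10 FPKM or more (35%, and 15.8% of all named genes) and 6 averaged 100 FPKM or more (30%, and 4.90% of all named genes). *FRK4*, a fructokinase, reached 1623, 1596 and 1519 FPKM, and *FRK2*, a second fructokinase, 303, 318 and 304 FPKM. Fructokinases phosphorylate the fructose that sucrose cleavage releases. The hexokinases *Hxk1a* and *NtHxK1* were at 187, 194 and 189 FPKM and at 124, 128 and 126 FPKM, while *Hxk4b* was at 0 throughout. The sucrose transporter *SUT3*, known from pollen, had 185, 192 and 179 FPKM. For trehalose, *NtTPP*, the phosphatase of trehalose 6-phosphate, had 210, 208 and 239 FPKM, whereas the synthase *NtTPS* had 1.23, 1.29 and 1.7 FPKM and the trehalase *NtTRE*, the lowest member above 0, had 0, 0.03 and 0 FPKM. In all, 3 members were at 0 in all libraries, the monosaccharide transporter *MST1* and the invertase *Ntbfruc1* being the others.

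The 9 genes of glycolysis and organic acids had a median of 10.9 FPKM, 5 members at 10 FPKM or more and 1 at 100 FPKM or more. Enolase had 201, 206 and 211 FPKM and the phosphoglycerate mutase *PGAM-I* 48.2, 47.6 and 53.5 FPKM. *NtPDC2*, a pyruvate decarboxylase of the route from pyruvate to ethanol and acetaldehyde, had 16.3, 16.4 and 15.3 FPKM, and the isocitrate dehydrogenase *IDH* 20.4, 19.1 and 21.5 FPKM. One glyceraldehyde-3-phosphate dehydrogenase gene, *GAPC*, had 7.69, 7.73 and 17.3 FPKM, and its mean reached 10 FPKM through replicate 3 alone.

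Genes that make or use S-adenosylmethionine, the methyl donor that also feeds polyamine synthesis, led the list of polyamines and amino acids. *SAMS1*, its synthetase, had 634, 620 and 619 FPKM with a CV of 1.38%, the CV being the SD over 3 libraries as a percentage of their mean. *SAMDC*, the decarboxylase that commits it to polyamines, had 183, 187 and 197 FPKM, and *SAHH*, which removes the by-product of methylation, had 133, 131 and 139 FPKM. A second synthetase, *SAMS2*, had 72.0, 74.9 and 92.5 FPKM. The list held 10 of 15 members at 10 FPKM or more and a median of 36.6 FPKM. Its 5 low members were each under 0.1 FPKM on average, with *delta-OAT*, an ornithine aminotransferase, lowest above 0 at 0, 0.06 and 0 FPKM, and with the glutamate dehydrogenase *gdh1* at 0 in all libraries.

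The listed translation genes were moderate. They were picked by name, and whether each serves the ribosomes of the cytosol or of an organelle was not checked. *NTTCTP*, the translationally controlled tumor protein homolog, had 280, 309 and 252 FPKM, and it was the only one of 34 members at 100 FPKM or more. It was followed by the ribosomal protein gene *RPL4* at 92.3, 100.3 and 101.9 FPKM, the cap-binding factor *eIFiso4E* at 93.5, 96.7 and 94.1 FPKM, and a poly(A)-binding protein, *PABP*, at 84.1, 85.1 and 81.6 FPKM. *RPL27*, the lowest above 0, had 0, 0 and 0.1 FPKM. The RNA helicase eIF-4A has 8 genes in the list, and the authors' counting could split reads between copies of a family, whose sequences were not compared here. Their sum was 224, 230 and 233 FPKM with a CV of 1.92%, and the CV of the single copies lay between 1.96% and 12.5%.

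Of the 13 lists, chaperones had the largest spread between libraries, with a median CV of 22.6% over members of 1 FPKM or more, against 10.4% over all named genes of that level. The cytosolic chaperone *NtHsp70* had 122, 134 and 116 FPKM and *NtHsp90* had 83.8, 91.6 and 58.0 FPKM. *PDI*, a protein disulfide isomerase of the endoplasmic reticulum, had 9.08, 8.87 and 11.7 FPKM, and *GrpE2*, a cofactor of organellar Hsp70, was the lowest above 0 at 0.08, 0.04 and 0 FPKM. All 6 genes of BiP, the Hsp70 of the endoplasmic reticulum, were lowest in replicate 3 and highest in replicate 2. The highest of them, *BIP1*, had 31.1, 31.3 and 26.0 FPKM, and *BIP5* had 8.8, 13.5 and 3.8 FPKM. The spread was also seen in their sum, which was 62.9, 75.8 and 43.2 FPKM with a CV of 27.1%.

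The listed autophagy genes, part of the machinery to which *ATG2* and *ATG5* belong, all averaged under 10 FPKM in WT pollen, with means from 0.08 to 6.96 FPKM. All 19 were above 0 in all libraries, as were 58.4% of all named genes, and 10 averaged 1 FPKM or more (52.6%, and 34.1% of all named genes). Their median of 1.04 FPKM was above the median of 0.2 FPKM of all named genes, of which 15.8% averaged 10 FPKM or more. The highest was *VPS15*, the regulatory subunit of the phosphatidylinositol 3-kinase complex, at 7.61, 7.48 and 5.8 FPKM, followed by the catalytic subunit *VPS34* at 3.29, 2.66 and 3.5 FPKM. One *ATG6* copy of the same complex had 1.61, 2.32 and 1.9 FPKM, and *ATG13b*, of the kinase complex that starts autophagosome formation, had 2, 1.84 and 1.7 FPKM. *ATG18e* was the lowest at 0.07, 0.07 and 0.1 FPKM. *ATG2*, a lipid transfer protein of the growing membrane, had 1.18, 1.04 and 0.9 FPKM and stood at rank 19860 of the mean levels. *ATG5*, part of the complex that couples ATG8 to lipid, had 1.04, 1.5 and 1.6 FPKM and stood at rank 17702. Replicate 3 gives these levels to 1 decimal only, and a copy that carries no name in the reference is not covered. The list holds no gene named *ATG3*, *ATG4*, *ATG7*, *ATG8* or *ATG12*, so these parts of the machinery are not described here.

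Signalling genes were led by *PLC3*, a phospholipase C that cleaves phosphoinositides, at 131, 127 and 120 FPKM and by *CBL2*, a calcineurin B-like calcium sensor, at 122, 116 and 123 FPKM. The MAP kinase *MPK8* had 73.5, 77.6 and 80.4 FPKM and the calcium-dependent protein kinase *CPK5* had 57.6, 59.9 and 55.8 FPKM. In total 11 of 33 members averaged 10 FPKM or more and 6 were at 0 in all libraries. *WIPK*, a wound-induced MAP kinase, had 0.06, 0.07 and 0 FPKM and shared the lowest mean above 0 with *cdpk3*, which had 0, 0.03 and 0.1 FPKM. Outside that list, the shaggy-type kinase *NSK6* had 141, 143 and 140 FPKM.

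The remaining lists held few abundant members. Of 19 channels and transporters, *nha1* was at 1968, 1999 and 1792 FPKM, and the next gene, the mitochondrial porin *NtVDAC3*, was at 38.5, 29.3 and 43.1 FPKM. The chloride channel *C1C-Nt1* had 12.5, 13.1 and 11.1 FPKM, and *HAK1*, a potassium transporter, was lowest above 0 at 0.04, 0 and 0 FPKM. Cell cycle and histone genes had a median of 0.642 FPKM over 30 genes. Their highest members were *cul1A*, a cullin of ubiquitin ligases, at 51.1, 51.1 and 51.5 FPKM, the histone *H3* at 25.6, 24.5 and 28.5 FPKM, and the Aurora kinases *NtAUR2* and *NtAUR1* at 25.7, 26.6 and 24.5 FPKM and at 11.1, 12.8 and 9.8 FPKM. No cyclin or replication gene of the list averaged 1 FPKM, for example the cyclin *CycB1* had 0.89, 0.88 and 0.7 FPKM, and *wee1*, an inhibitory kinase of the cell cycle, was lowest above 0 at 0, 0.06 and 0 FPKM. In the list of oxidative stress, the thioredoxin *Trx-H2* had 167, 161 and 181 FPKM and the catalase *cat3* 141, 148 and 162 FPKM. The iron store *FER1*, a ferritin, had 25.8, 25.2 and 22.6 FPKM and the glutathione peroxidase *PHGPx* 17.8, 17.6 and 18.8 FPKM, while another catalase gene, *cat1* (GeneID:107799583), had 0.13, 0.03 and 0.1 FPKM. The oxidases *rbohD* and *rbohF*, which make superoxide at the plasma membrane, were at 0 in all libraries.

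The abundant named genes outside the lists included 4 genes of lipid synthesis. The fatty acid desaturases *FAD2* and *FAD3*, which introduce successive double bonds into membrane lipids, had 451, 476 and 520 FPKM and 452, 464 and 496 FPKM. *HMGR2* and *HMGR1*, the enzymes that control the mevalonate route to sterols and other isoprenoids, had 461, 495 and 470 FPKM and 296, 310 and 274 FPKM. *GME1*, an epimerase that supplies GDP-galactose for ascorbate and wall polymers, had 104, 108 and 90.5 FPKM. Of the named genes of 100 FPKM or more, *Nict1* had 859, 713 and 729 FPKM, *D31* 467, 473 and 493 FPKM, *CA* 251, 252 and 267 FPKM, *oas7* 152, 162 and 152 FPKM, *TSS* 142, 145 and 139 FPKM, *NtTE* 124, 127 and 138 FPKM and *ipi1* 133, 125 and 117 FPKM. Their roles are left out, as are those of *didiA15*, *pk2* and *RISP2*, which lay between 96.1 and 133 FPKM. Other members at this level were the alpha-tubulins *TUA5* (663, 704 and 701 FPKM), *BYtuba* (513, 514 and 638 FPKM) and *tubA2* (360, 350 and 437 FPKM), and the actin *Tob103* (152, 149 and 147 FPKM).

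Unannotated transcripts were detected more often than annotated genes and held a part of the signal near their part of the rows, of which they were 10.01%. They made up 9.82%, 8.62% and 8.93% of all FPKM, or 9.12 ± 0.619% (SD, n = 3), and annotated genes the rest. Rows above 0 were 80.9 ± 1.99% of unannotated transcripts and 49.1 ± 2.11% of annotated genes, and rows of 1 FPKM or more were 57.8 ± 3.91% and 22.5 ± 0.531%. Seen over all libraries, 844 unannotated transcripts (10.98%) and 29240 annotated genes (42.3%) were at 0 in each. How the unannotated transcripts were found is not given. If they had to carry reads in this series to be listed, as annotated genes need not, a higher detection would follow from that. This was not tested. The median of the rows above 0 was 1.83, 1.84 and 2 FPKM for unannotated transcripts and 0.66, 0.71 and 0.9 FPKM for annotated genes. That order rests on rows near 0, since with a floor of 0.5 FPKM it turned, to means over the libraries of 2.27 FPKM for unannotated transcripts and 3.19 FPKM for annotated genes.

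The unannotated transcripts were concentrated at intermediate levels. They were 8.80 ± 0.220% of the rows above 0 and under 1 FPKM, 26.3 ± 0.922% of the rows of 1 to 10 FPKM, 13.9 ± 0.360% of the rows of 10 to 100 FPKM, 10.3 ± 0.162% of the rows of 100 to 1000 FPKM and 6.54 ± 2.47% of the rows of 1000 FPKM or more. It took 47, 59 and 66 unannotated transcripts to hold 50% of the unannotated FPKM and 181, 181 and 191 annotated genes to hold 50% of the annotated FPKM. As a share of the rows above 0 these were 0.921 ± 0.137% and 0.545 ± 0.0408%, and for 90% of the FPKM the shares were 21.0 ± 2.99% and 8.08 ± 0.642%. The unannotated signal was thus spread over a larger part of its rows above 0. These shares depend on rows near 0, since rows under 1 FPKM were 28.5% of the unannotated and 54.1% of the annotated rows above 0. The highest by mean was transcript 6370 at 2549, 2645 and 2935 FPKM, which placed it at rank 53 of all rows. It was followed by transcript 17689 at 3039, 2731 and 2251 FPKM and transcript 18920 at 2638, 2816 and 2054 FPKM, and the ranges of these 3 transcripts overlapped. The next was transcript 17943 at 1803, 1761 and 1605 FPKM. No sequence, position or gene product of these transcripts was at hand. Some unannotated rows are not independent of each other. Of the sets of rows with equal values in all libraries, 10 had a mean of 10 FPKM or more, and all 10 were pairs of unannotated transcripts with consecutive numbers, for example transcript 3549 and transcript 3550, both at 218.9, 40.1 and 52.7 FPKM.

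The spread between replicates was larger for unannotated transcripts than for annotated genes in each class from 1 FPKM upward. Over rows with a mean of 1 FPKM or more, the median CV was 23.4% for 4636 unannotated transcripts and 10.9% for 15506 annotated genes. Without replicate 3 these medians were 14.8% and 6.87%, against 21.0% and 10.1% without replicate 1 and 20.2% and 9.16% without replicate 2. A CV over 2 libraries is not on the scale of a CV over 3, so these medians are compared only with each other. By these medians replicates 1 and 2 were the nearest pair, and the order of the kinds stayed throughout. The FPKM were unscaled here, and the median-of-ratios factors of replicates 1, 2 and 3 were 0.987, 0.986 and 1.03. Replicate 3 also carries fewer decimals, and the part of either in its distance was not tested. From 1 to 10 FPKM the median CV was 26.1% for unannotated transcripts and 13.8% for annotated genes, from 10 to 100 FPKM 14.1% and 7.45%, from 100 to 1000 FPKM 8.46% and 4.67%, and from 1000 FPKM 9.66% (11 transcripts) and 4.88% (166 genes). Rows of at least 10 FPKM with a CV over 50% were 76 of 791 unannotated transcripts (9.61%) and 22 of 5371 annotated genes (0.410%). Pearson's r of log2(FPKM + 0.5) between pairs of libraries was 0.854 to 0.869 across 6842 unannotated transcripts and 0.988 to 0.990 across 39859 annotated genes. Without the log, r across unannotated transcripts was 0.980 between replicates 2 and 3, 0.896 between replicates 1 and 3 and 0.884 between replicates 1 and 2. These coefficients are across rows that were above 0 in at least 1 library, and rows are not independent replicates.

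**Figure D4:**
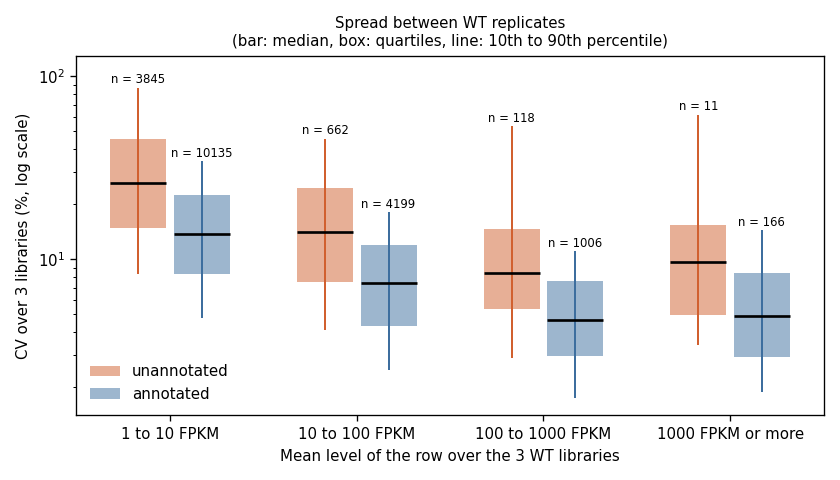
CV over the 3 WT libraries (%, log scale) by mean level, for unannotated transcripts (orange, left of each pair) and annotated genes (blue, right). Black bars are medians, boxes the quartiles and lines the 10th to 90th percentile, with the number of rows above. In each of the 4 classes the median is higher for unannotated transcripts, for example 14.1% and 7.45% from 10 to 100 FPKM.

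The number of detected rows differed between libraries with the threshold. Replicate 3 had the fewest annotated genes above 0, at 32304 against 35161 and 34263 in replicates 1 and 2, but the most of at least 1 FPKM, at 15972 against 15333 and 15340. It was the library in which most rows were at 0 while the other libraries were above 0, 2735 rows against 1299 in replicate 1 and 1580 in replicate 2. For unannotated transcripts this was not so, since 141 were at 0 in replicate 3 alone, against 269 in replicate 1 and 265 in replicate 2. These orders depended on the decimals. With all libraries rounded to 1 decimal, replicate 3 had the most annotated genes above 0, at 32304 against 31212 and 30707 in replicates 1 and 2, and the fewest rows at 0 in 1 library alone, at 1143 against 1683 and 1886.

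The steadiest genes of at least 10 FPKM kept their level almost exactly. GeneID:107769392 had 15.6 FPKM in each library after rounding (CV 0.111%), GeneID:107820370 had 75.2, 75.2 and 75 FPKM (CV 0.124%), and GeneID:107797588 had 34.9, 34.8 and 34.9 FPKM (CV 0.135%). They were chosen for the smallest spread among 5371 genes, as were GeneID:107780893 at 31.7, 31.8 and 31.7 FPKM and GeneID:107800632 at 62.0, 61.8 and 62.1 FPKM, so their CVs are no estimate of the spread to be met in other samples.

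At the other end, a few rows were well above 0 in some libraries and listed at 0 in others. GeneID:107780961 was at 0, 0 and 383.4 FPKM and GeneID:107804923 at 0, 0 and 31.0 FPKM, so both were above 0 in replicate 3 alone. GeneID:107822873 had 24.8, 0 and 13.7 FPKM. These were the 3 annotated genes with a mean of at least 10 FPKM that were at 0 in some library, and 23 unannotated transcripts were of that kind. Among these transcripts, transcript 22454 had 0, 34.8 and 0 FPKM, transcript 14026 4.4, 89.5 and 0 FPKM, transcript 9197 0, 35.2 and 7.5 FPKM, and transcript 6494 0, 32.8 and 7.1 FPKM. The other annotated genes of highest CV were above 0 throughout. GeneID:107793208 was high in replicate 3, at 68.9, 67.7 and 209.5 FPKM, as was GeneID:107831122 at 25.4, 26.6 and 69.4 FPKM. In replicate 2, GeneID:107772712 was high at 39.6, 104.9 and 20.4 FPKM, GeneID:107815492 at 11.4, 28.1 and 9 FPKM, and *CCoAMT-6*, a methyltransferase of phenylpropanoid synthesis, at 7.53, 19.3 and 5.8 FPKM. In replicate 1, GeneID:107801516 was high at 73.6, 27.2 and 26.5 FPKM. The most abundant gene of this sort was GeneID:107831913 at 1816, 727 and 595 FPKM (CV 64.1%), which was also highest in replicate 1.

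A set of abundant unannotated transcripts was high in a single library. Of the 791 unannotated transcripts with a mean of at least 10 FPKM, 14 were at least 3 times higher in replicate 1 than in both other libraries. In replicate 2 there were 4 such rows and in replicate 3 there were 2. At 2 times higher the counts were 20, 9 and 12, and at 5 times higher they were 3, 2 and 0. Unannotated transcripts at least 3 times lower than in both other libraries numbered 12, 10 and 12 in replicates 1, 2 and 3, so in that direction the libraries were near each other in number. Of the 5371 annotated genes of that level, 0, 0 and 3 were at least 3 times higher in replicates 1, 2 and 3. At 2 times higher these counts were 4, 4 and 12, so there replicate 3 had the most. The most abundant of the 14 was transcript 21258 at 3593, 590 and 729 FPKM, followed by transcript 11238 at 1934, 353 and 512 FPKM, transcript 12612 at 1037, 195 and 240 FPKM and transcript 13569 at 1007, 180 and 215 FPKM. In these 4 rows replicates 2 and 3 lay close together and replicate 1 lay far above both. The farthest apart from replicate 3 was transcript 8359, at 184, 18.5 and 11.4 FPKM. Together the 14 rows, which include the pair transcript 3549 and transcript 3550 with equal values, made up 11.1%, 2.34% and 2.54% of the unannotated FPKM. With them left out, unannotated transcripts were 8.82%, 8.44% and 8.73% of all FPKM. Since the rows were chosen for being high in replicate 1, the lower share of that library without them follows from the choice. Rows of 1000 FPKM or more were 17, 8 and 10 among unannotated transcripts, and the share of unannotated FPKM they held was 30.6%, 18.5% and 18.4%. In the same library the sums of green and of floral markers were the highest (6.97, 3.44 and 3.1 FPKM over 18 green genes and 16.5, 6.94 and 5.9 FPKM over 8 floral genes), and their part in the result was not tested. The 14 rows were chosen after their values were seen.

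**Figure D5:**
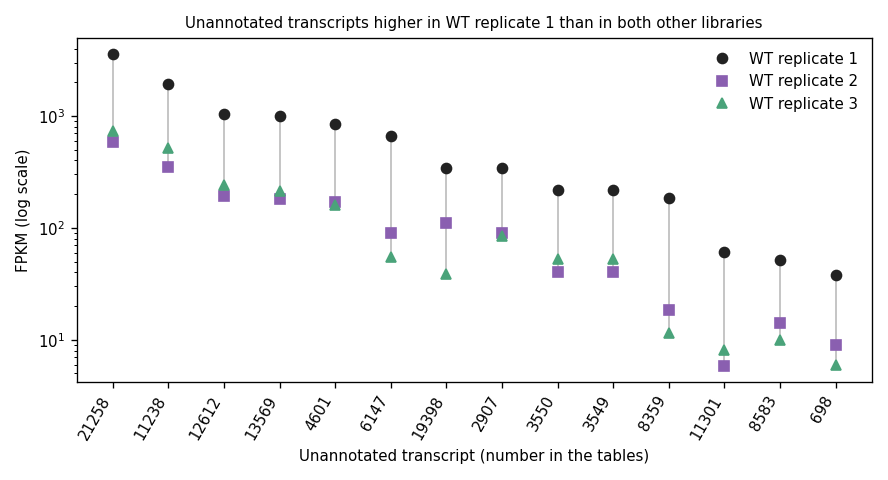
FPKM (log scale) of the 14 unannotated transcripts that were at least 3 times higher in WT replicate 1 (black circles) than in replicate 2 (purple squares) and replicate 3 (green triangles), ordered by their level in replicate 1. Values in replicate 1 run from 38.3 to 3593 FPKM, and for most rows the other libraries lie close to each other.

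Abundant genes were sometimes neighbours. In the gene order of the K326 assembly, where 53593 of the annotated genes could be placed, 1055 genes averaged 100 FPKM or more, and 46 pairs of adjacent genes were both at that level. Adjacent here means the next placed gene on the chromosome, at any distance. Genes of that assembly without a match in the libraries were passed over, so other genes can lie between. Of the genes of 100 FPKM or more 8.63% had such a neighbour, and of the genes under 100 FPKM 3.79% had a neighbour of 100 FPKM or more. The most abundant transcript, *ntp101* with a mean of 9252 FPKM, lay next to the alpha-tubulin *TUA5* with a mean of 689 FPKM, and *PPME1* with a mean of 4337 FPKM lay next to GeneID:107764290 with a mean of 536 FPKM. The order comes from another cultivar and another assembly than the one used for mapping, and no test was made, since adjacent copies of a duplicated gene and reads shared between them were not separated.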

How the data were processed

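Pollen mRNA of WT plants was purified with Dynabeads and sequenced by the authors from MGIEasy libraries. Clean reads were mapped by the authors to the Ntab-TN90 genome and transcripts with HISAT2 and Bowtie 2 and quantified with RSEM, in versions not given in the sources used here. The plants were of cultivar SR1. The values deposited are FPKM, 1 table per library, normalized by the authors to transcript length and mapped fragments. They were used unscaled, and 1 line per table without a gene was left out. Near-identical copies can exchange reads in such values.

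Per library, rows were counted by class (1, 10, 100 and 1000 FPKM), shares were taken of the summed FPKM, and the CV was computed over rows with a mean of at least 1 FPKM. Names came from RefSeq's K326 table by gene identifier, which matched 53952 of 69099 annotated genes. The rule for named genes took the 10 annotated and 5 unannotated rows of highest mean, named genes of at least 100 FPKM, the 4 highest and the lowest member above 0 of each list, the rows of extreme CV at 10 FPKM or more, and *ATG2* and *ATG5*. A step on protein similarity could not be run, as no protein table was at hand. Some genes that the rule names are not reported here. Members and lists were chosen with earlier results of these data known.

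Alternatives were floors of 0.1, 0.5 and 1 FPKM, rescaling to a total of 1000000, median-of-ratios scaling, rounding to 1 decimal, other pseudocounts, and leaving out each library. The procedure was tested on simulated data. Python 3.11.15, numpy 2.4.6, pandas 2.3.3, scipy 1.17.1 and matplotlib 3.10.9 were used.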

Additional observations from a re-analysis of the deposited data

How the results depend on the processing

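Across the alternatives, 28 of 159 summary values were counted as moved and 131 were not, and none of those under median-of-ratios scaling moved. The 131 include counts of rows that left the spread of the libraries. Detected rows were 35734 with a floor of 0.1 FPKM and 37615 on average with rounding to 1 decimal, against 40124 ± 1314 (SD, n = 3). Unannotated transcripts at or above the floor were 5435 at 0.5 FPKM and 4445 at 1 FPKM, against 6214 ± 153 above 0. With a floor of 0.1 FPKM the class under 1 FPKM held 0.615% of FPKM, the annotated median was 1.15 FPKM and the mean r between libraries was 0.974. With a floor of 0.5 FPKM there were 24812 detected rows, 0.357% of FPKM in that class, medians of 2.27 FPKM (unannotated) and 3.19 FPKM (annotated) and an r of 0.964. With a floor of 1 FPKM there were 19993 rows, 0% in that class, medians of 2.94 and 5.08 FPKM, an unannotated median CV of 18.2% and an r of 0.959. Rounding all libraries to 1 decimal gave 37322, 36829 and 38695 rows above 0, which turned the order of replicate 3, 0.610%, an annotated median of 0.933 FPKM and an r of 0.974, rescaling to a total of 1000000 gave 4.78% for 1 to 10 FPKM, and classes by the mean gave 0.679% under 1 FPKM. Leaving out 1 library gave median CVs of 14.8% to 21.0% for unannotated transcripts and 6.87% to 10.1% for annotated genes, the lowest without replicate 3. These are CVs over 2 libraries and not on the scale of those over 3. Rows with a mean of at least 5 FPKM gave 15.2% and 7.72% over 3 libraries. The r was 0.954 with a pseudocount of 0.1, 0.981 with 1, 0.981 over all rows and 0.987 over rows of 1 FPKM in all libraries, against 0.976. The share of unannotated transcripts was 8.66% without the 14 rows apart in replicate 1, an alternative chosen after seeing the data. Of 144 genes and rows with a mean of 10 FPKM or more, 0 moved over 1.5 times by scaling and 16 without 1 library, of which 15 were rows of highest CV and the other was transcript 21258. Of 180 lower ones, 39 moved. The cause of these changes was not tested, beyond the floors themselves removing rows. No paired analysis was possible because only 1 group was used. The depth behind single values could not be computed, and levels under about 1 FPKM are limited by the decimals of replicate 3.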
